A study of Mus musculus with 24 samples.

Results

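The enzymes of serine synthesis and of the serine-fed part of one-carbon metabolism were followed across 4 treatments of ID8 mouse ovarian cancer cells. The 10 members were selected by gene symbol from the 25229 genes of the deposited count table: Phgdh, Psat1, Psph, Shmt1, Shmt2, Mthfd1, Mthfd1l, Mthfd2, Mthfd2l and Aldh1l2. The pathway was chosen on the cisplatin and interaction values of Aldh1l2 in these same libraries, so Aldh1l2 is described here without a test and stays out of the counts, which cover the other 9 members. ID8 is a line from mouse ovarian surface epithelium, and every group here carried the same Trp53 knockout (labelled P53 KO). The 6-day treatments were the solvent DMSO, cisplatin at 750 nM, AU-15330 at 2.5 uM, and both drugs at these doses (called the combination). AU-15330 is a PROTAC that sends the SWI/SNF ATPases SMARCA4 and SMARCA2 to degradation, and cisplatin is a platinum drug that crosslinks DNA and was used to make the cells senescent. Each treatment had 6 libraries of polyadenylated RNA, numbered 1 to 6. The series comprises 1 cell line, and the sources do not say whether the replicates were separate cultures, so p-values measure the spread between these libraries.

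Serine is made from the glycolytic intermediate 3-phosphoglycerate in a short chain of reactions: PHGDH oxidizes it, PSAT1 transfers an amino group from glutamate, and PSPH removes the phosphate. SHMT1 in the cytosol and SHMT2 in mitochondria split serine into glycine and a one-carbon unit carried on tetrahydrofolate. MTHFD2, MTHFD2L and MTHFD1L then oxidize that unit to formate in mitochondria, MTHFD1 handles the same steps in the cytosol, and ALDH1L2 instead burns mitochondrial formyl-tetrahydrofolate to carbon dioxide while making NADPH. One-carbon units feed purine and thymidylate synthesis, and many genes of the pathway are known targets of ATF4, the transcription factor of the amino acid stress response.

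Among the members with a RefSeq promoter window, Psat1, Shmt1 and Shmt2 are printed because they changed most or in opposite directions within a reaction. The sequences are from RefSeq (GRCm38.p6), run 5′ to 3′ on the gene's strand from 250 bases before the annotated start to 50 after it, and show each CCAAT box in capitals (CCAAT, or its reverse complement ATTGG).
Psat1, chr19:15925010-15925309, minus strand: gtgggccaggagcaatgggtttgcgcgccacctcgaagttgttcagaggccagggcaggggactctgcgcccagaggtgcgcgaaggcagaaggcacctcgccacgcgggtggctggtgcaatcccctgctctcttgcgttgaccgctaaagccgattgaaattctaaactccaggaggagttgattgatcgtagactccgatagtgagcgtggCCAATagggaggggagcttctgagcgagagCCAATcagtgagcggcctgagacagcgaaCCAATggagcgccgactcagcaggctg
Shmt1, chr11:60811216-60811515, minus strand: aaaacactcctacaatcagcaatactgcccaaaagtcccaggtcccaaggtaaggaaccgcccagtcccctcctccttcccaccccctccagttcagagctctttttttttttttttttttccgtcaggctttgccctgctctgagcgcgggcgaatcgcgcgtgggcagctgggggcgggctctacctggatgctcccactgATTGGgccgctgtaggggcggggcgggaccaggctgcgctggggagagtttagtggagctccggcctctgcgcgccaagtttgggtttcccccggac
Shmt2, chr10:127522395-127522694, minus strand: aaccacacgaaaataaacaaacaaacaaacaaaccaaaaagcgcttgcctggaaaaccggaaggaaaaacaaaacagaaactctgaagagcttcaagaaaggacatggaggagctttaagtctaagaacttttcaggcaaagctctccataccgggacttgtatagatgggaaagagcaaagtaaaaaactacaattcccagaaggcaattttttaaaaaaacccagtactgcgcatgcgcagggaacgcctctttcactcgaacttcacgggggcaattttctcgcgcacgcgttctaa

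The Psat1 window held 3 CCAAT boxes, the Shmt1 window held 1 as ATTGG, and the Shmt2 window held 0. Of the members, 9 (all but Aldh1l2) were matched to RefSeq windows, 10 windows in all because Psat1 has 2 annotated starts. CCAAT, searched on both strands, was found in 6 of these 10 windows, in Psat1, Shmt1, Phgdh, Psph, Mthfd1 and Mthfd2, against 37.4% of 32851 promoter windows of the genome. TGATGNAA, an ATF4 response element searched on both strands, was found in 0 of the 10 windows and in 3.97% of all windows. The E-box CACGTG was also in 0 of 10, against 7.15% of all. CCAAT was added after the other 2 motifs had given no match, and a match or its absence describes only the letters of these windows. In GENCODE M21 on GRCm38, Psat1 spans chr19:15904678-15947337, Shmt1 chr11:60788104-60811718 and Shmt2 chr10:127517123-127522444, all on the minus strand. The printed windows of Psat1 and Shmt1 lie inside these spans, and that of Shmt2 holds the end of the span where the gene starts.

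Library totals ran from 17592588 to 25260009 counts with a median of 21863798.5. Levels are given as CPM, counts relative to the library's size after scaling with edgeR's TMM factors, and intervals or floors from counts cover counting error only. Markers of ID8 cells were unequal in DMSO, with Wt1 at 845 ± 51.4 CPM and Krt19 at 1783 ± 451 CPM (SD, n = 6). Krt7 (0.43 to 2.42 CPM) and Cdh1 (0.31 to 1.16 CPM) were low there, and Epcam did not exceed 0.124 CPM. With AU-15330, all 8 tested mesothelial and epithelial markers were lower than in DMSO. With cisplatin, 6 were higher and 0 lower, among them Upk3b (log2 2.13, adjusted p = 2.69e-06 by edgeR's quasi-likelihood test) and Krt7 (log2 1.89, adjusted p = 6.43e-06, at 4.3 to 5.2 CPM). Krt19 did not pass (log2 -0.35, adjusted p = 0.257). The list of 9 in the count table summed to 3513 to 5309 CPM in DMSO, Krt19 being the largest part, 4178 to 4854 CPM with cisplatin, 1018 to 1150 CPM with AU-15330 and 1223 to 1404 CPM with both. Its part in the changes of the members was not tested. Of 10 markers of other cell types, Col1a1 and Pecam1 passed the low-count filter, and the list summed to 189.7 to 626 CPM in DMSO, 171 to 315 CPM with cisplatin, 59.2 to 105 CPM with AU-15330 and 128 to 214 CPM with the combination, nearly all of it Col1a1. Pecam1, an endothelial and leukocyte adhesion gene, gave 2.83 to 4.23 CPM in DMSO, 8.24 to 12.4 CPM with cisplatin (log2 1.49, adjusted p = 1.36e-08 by edgeR's quasi-likelihood test), 0.261 to 0.715 CPM with AU-15330 (log2 -2.95, adjusted p = 9.57e-13) and 0.439 to 0.910 CPM with both, and its part in the members' changes was not tested either. The endothelial marker Cdh5 did not exceed 0.144 CPM, the pan-leukocyte marker Ptprc did not exceed 0.309 CPM, and Ncr1 was at 0 counts in every library. The Trp53 transcript gave 18.7 to 42.9 CPM, which does not check a knockout shared by all groups, and AU-15330 acts on protein, so Smarca4 mRNA does not check that label.

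One library stood apart for several members. In DMSO replicate 1, the tested members Mthfd2, Shmt2, Psph and Phgdh were lower than in each of the other 5 DMSO libraries. So was Aldh1l2, which was not tested. Aldh1l2 gave 33.5 CPM there and 117 to 185 CPM in the others, and Mthfd2 gave 31.0 CPM against 76.8 to 97.9 CPM. Shmt1 was higher in this library than in the other DMSO libraries, at 2.97 CPM against 1.54 to 2.51 CPM. Of 36 tested genes, Atf4 and its amino acid response genes, 32 were lower in DMSO replicate 1 than in the other 5 libraries (88.9%), against 22.6% of all tested genes. Calls of the tested members that change without this library are given with those members or with the comparison concerned.

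On a scale that allows genes to be compared, CPM per kilobase of merged exons (GENCODE M21), the members differed widely in DMSO. Psat1 led at 112 ± 16.6 CPM per kb, followed by Shmt2 at 61.8 ± 17.4 (SD, n = 6). Phgdh at 38.5 ± 11.7 and Mthfd2 at 36.4 ± 11.1 CPM per kb did not differ beyond their spread, and neither did Psph (21.7 ± 6.79), Aldh1l2 (21.4 ± 9.12), Mthfd1 (19.1 ± 1.72) and Mthfd1l (17.2 ± 3.78). Mthfd2l at 3.98 ± 0.282 and Shmt1 at 0.747 ± 0.197 CPM per kb came last. With AU-15330 the order was another: Phgdh (44.3 ± 3.09) had the highest mean, and its libraries overlapped those of Mthfd2 (36.5 ± 7.34). Psat1 had dropped to 10.9 ± 2.05, and Shmt1 at 11.9 ± 1.01 CPM per kb was beside it.

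**Figure D1:**
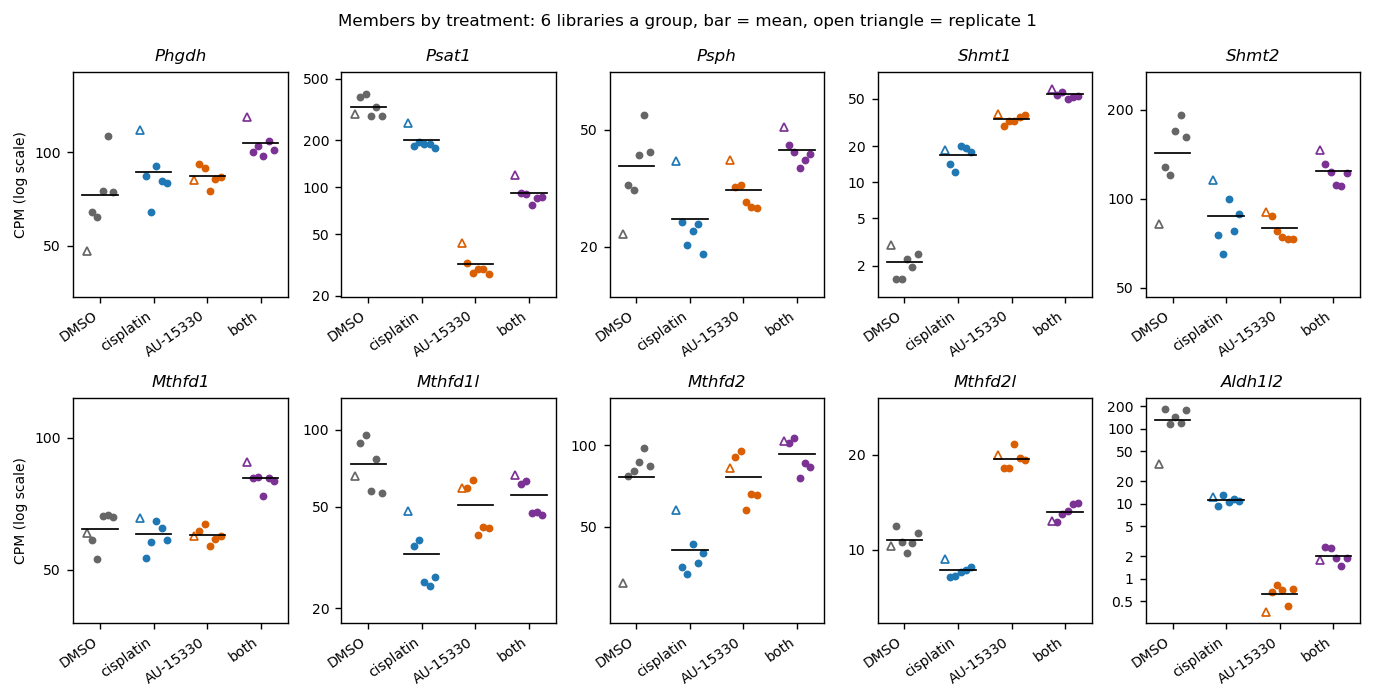
Level of each of the 10 members in every library, as TMM-scaled CPM on a log axis whose range differs between panels, with 6 libraries a treatment (DMSO, cisplatin, AU-15330, both). Bars are group means and open triangles replicate 1; Shmt1 rose from 1.54 to 2.97 CPM in DMSO to 50.05 to 60.0 CPM with both drugs, while Psat1 was lowest with AU-15330.

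Phgdh, the gene of the first enzyme of the chain, did not pass the test with either drug alone and rose with both. It gave 48.1 to 113 CPM in DMSO (median 69.4) and 64.5 to 118 CPM with cisplatin (median 82.4). With AU-15330 it gave 75.3 to 91.6 CPM (median 82.8), and with the combination 97.5 to 130.0 CPM (median 103). The combination libraries lay above all AU-15330 libraries and overlapped those of DMSO and cisplatin. Against DMSO, the log2 fold change of Phgdh was 0.24 ± 0.143 (SE) with cisplatin and 0.20 ± 0.143 with AU-15330, adjusted p = 0.161 and 0.207 by edgeR's quasi-likelihood test. Phgdh rose in the combination against DMSO by a log2 fold change of 0.56 ± 0.143 (1.47-fold, adjusted p = 0.00116). It was 0.34 (adjusted p = 0.016) without replicate 1, and within replicates 4 to 6 it was not called (0.18, adjusted p = 0.243). The call against AU-15330 alone (0.35 ± 0.142, adjusted p = 0.0479) is at the threshold: it was lost under 13 of the 15 alternatives, with adjusted p up to 0.255, among them the replicate block (0.35, adjusted p = 0.0516). Without replicate 5, the rises with cisplatin (0.43, adjusted p = 0.0128) and with AU-15330 (0.38, adjusted p = 0.0158) were called as well, while without replicate 1 the differences were 0.02 (adjusted p = 0.895) and 0.10 (adjusted p = 0.487). Of 21 genes with transcripts at least 90% identical to Phgdh over 70 bases or more, 3 are in the count table with at most 1 count in a library, so reads that the counting could have split between copies cannot be placed.

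Psat1, which encodes the aminotransferase of the second step, showed the largest fall among the tested members. It gave 286 to 396 CPM in DMSO (median 312.5) and 180.1 to 259 CPM with cisplatin (median 191). AU-15330 brought it to 27.7 to 43.6 CPM (median 29.8), and the combination to 77.3 to 120.0 CPM (median 88.7). The 4 groups did not overlap in any of the 5 pairs compared. Psat1 fell with cisplatin by a log2 fold change of -0.72 ± 0.119 (adjusted p = 1.6e-05) and with AU-15330 by one of -3.37 ± 0.131, or 10.3-fold (adjusted p = 6.7e-18). In a bulk sample, fewer cells expressing a gene and less RNA per cell cannot be told apart. With both drugs Psat1 was 2.89-fold higher than with AU-15330 alone (log2 1.53 ± 0.123, adjusted p = 5.79e-10) and 2.17-fold lower than with cisplatin alone (adjusted p = 6.28e-09). Within replicates 1 to 3 and within 4 to 6, the fall with AU-15330 was of the same size, -3.37 and -3.38 on the log2 scale. Replicate 1 was the highest library of Psat1 in each of the 3 drug-treated groups.

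Psph, the phosphatase that ends the chain, gave 22.1 to 56.4 CPM in DMSO (median 36.8) and 18.9 to 39.0 CPM with cisplatin (median 23.3). The AU-15330 libraries gave 27.1 to 39.4 CPM (median 30.1) and those of the combination 37.2 to 51.1 CPM (median 41.9). Every pair of groups overlapped. With cisplatin, Psph fell 1.51-fold (log2 -0.60 ± 0.172, adjusted p = 0.0053), a call lost without replicate 5 (-0.44, adjusted p = 0.0512) and larger without replicate 1 (-0.90, adjusted p = 3.14e-06). The fall was -0.04 (adjusted p = 0.903) within replicates 1 to 3 and -1.10 (adjusted p = 3.85e-06) within 4 to 6. With AU-15330 the log2 difference from DMSO was -0.27 ± 0.172 (adjusted p = 0.156), and without DMSO replicate 1 it passed the threshold at -0.38 (adjusted p = 0.0401). Psph was 1.72-fold higher in the combination than with cisplatin (adjusted p = 0.000275). The call against AU-15330 (log2 0.45 ± 0.171, adjusted p = 0.035) was lost under 7 of the 15 alternatives: when any of replicates 2 to 6 was left out (adjusted p of up to 0.0988), without the low-count filter (adjusted p = 0.064), and within replicates 1 to 3 (adjusted p = 0.239). The exons of Psph share 452 bases with Cct6a on the other strand, a chaperonin subunit gene that gave 222 to 301 CPM in DMSO and 301 to 410 CPM with the combination. The libraries were made with a strand-marking kit, and whether the counting used strand is not given in the sources used here.

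Shmt1, the cytosolic serine hydroxymethyltransferase gene, rose in every treatment. It gave 1.54 to 2.97 CPM in DMSO (median 2.11), on 32 to 54 counts per library, and 12.2 to 20.04 CPM with cisplatin (median 18.2). AU-15330 gave 29.6 to 37.1 CPM (median 33.9) and the combination 50.05 to 60.0 CPM (median 53.4). The 5 compared pairs of groups were without overlap. Against DMSO, Shmt1 was 8.01-fold higher with cisplatin (log2 3.00 ± 0.140, adjusted p = 2.17e-15), 15.98-fold higher with AU-15330 (log2 4.00 ± 0.140, adjusted p = 9.29e-19) and 25.5-fold higher with both (log2 4.67 ± 0.142, adjusted p = 8.75e-20). The combination exceeded cisplatin alone 3.19-fold (adjusted p = 1.16e-12) and AU-15330 alone 1.60-fold (adjusted p = 2.61e-05). Smcr8, a gene on the other strand that shares 184 exon bases with Shmt1, gave 35.7 to 76.3 CPM in DMSO, where Shmt1 was below 3 CPM. It gave 52.7 to 86.6 CPM with cisplatin, 88.8 to 109 CPM with AU-15330 and 81.5 to 109 CPM with the combination. Its part in the counts of Shmt1 was not tested.

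Shmt2, the mitochondrial counterpart, moved the other way with each drug alone. It gave 82.1 to 192 CPM in DMSO (median 145), 65.2 to 116 CPM with cisplatin (median 83.2) and 72.9 to 90.5 CPM with AU-15330 (median 76.2). With the combination it gave 110.1 to 146 CPM (median 123). DMSO replicate 1 was the lone DMSO library inside the AU-15330 range, and the AU-15330 and combination libraries did not overlap. Shmt2 fell against DMSO, with a log2 fold change of -0.71 ± 0.15 for cisplatin (adjusted p = 0.000311) and of -0.84 ± 0.15 for AU-15330 (adjusted p = 1.82e-05). Within replicates 1 to 3 these falls were -0.37 in both comparisons (adjusted p = 0.185 and 0.132), and within 4 to 6 they were -0.99 and -1.26. The combination was 1.56-fold higher than AU-15330 (adjusted p = 0.0012) and 1.42-fold higher than cisplatin (adjusted p = 0.00398). Its log2 difference from DMSO was -0.20 ± 0.149 (adjusted p = 0.234), and without DMSO replicate 1 it was -0.31 (adjusted p = 0.0338).

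The balance of the hydroxymethyltransferase transcripts therefore shifted. Per kilobase of exon, Shmt1 amounted to 0.812% to 2.92% of Shmt2 in DMSO (median 1.06%), the highest value being DMSO replicate 1. It was 12.9% to 20.02% with cisplatin (median 15.7%), 27.3% to 40.4% with AU-15330 (median 34.5%) and 33.0% to 37.9% with the combination (median 35.5%). The AU-15330 and combination libraries overlapped, and both lay above all cisplatin libraries. This ratio was formed from measures already described and carries no test of its own.

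**Figure D2:**
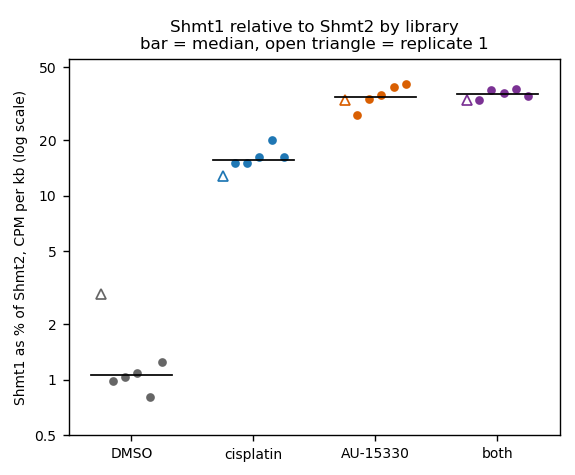
Shmt1 as a percent of Shmt2 in each library, both as CPM per kb of merged exons, on a log axis, with 6 libraries a treatment, group medians as bars and replicate 1 as an open triangle. The DMSO libraries lie between 0.812% and 2.92%, and the AU-15330 and combination libraries between 27.3% and 40.4%.

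Mthfd1, the cytosolic trifunctional enzyme gene, passed no test with either drug alone and was higher with both. It gave 52.9 to 66.7 CPM in DMSO (median 63.3), 53.0 to 65.7 CPM with cisplatin (median 60.3) and 56.5 to 63.6 CPM with AU-15330 (median 59.7). The combination libraries, at 73.6 to 88.2 CPM (median 81.2), lay above every other library. The log2 difference from DMSO was -0.04 ± 0.0645 with cisplatin (adjusted p = 0.653) and -0.04 ± 0.0645 with AU-15330 (adjusted p = 0.537). Both signs turn under total-count scaling, to 0.03 and 0.08 (adjusted p = 0.703 and 0.292). The combination was 1.34-fold above cisplatin (adjusted p = 2.02e-06), 1.35-fold above AU-15330 (adjusted p = 6.68e-06) and 1.31-fold above DMSO (adjusted p = 6.87e-06).

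Mthfd1l, which releases formate in mitochondria, was lower after each drug than in DMSO. It gave 56.6 to 95.2 CPM in DMSO (median 71.4) and 24.5 to 48.0 CPM with cisplatin (median 30.7), with no overlap. AU-15330 gave 38.6 to 63.5 CPM (median 50.5) and the combination 46.4 to 66.6 CPM (median 54.5), ranges that overlapped each other and that of DMSO. Mthfd1l fell 2.24-fold with cisplatin (log2 -1.17 ± 0.171, adjusted p = 3.09e-06) and 1.45-fold with AU-15330 (log2 -0.54 ± 0.169, adjusted p = 0.00609). It was 1.69-fold higher in the combination than with cisplatin (adjusted p = 0.000339). The fall in the combination against DMSO (log2 -0.41 ± 0.168, adjusted p = 0.0322) was not called without replicate 2 (adjusted p = 0.083), 3 (adjusted p = 0.0969) or 5 (adjusted p = 0.0893), nor under total-count scaling (adjusted p = 0.159).

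Mthfd2, the mitochondrial dehydrogenase and cyclohydrolase, fell with cisplatin and was higher with both drugs than with cisplatin. It gave 31.0 to 97.9 CPM in DMSO (median 82.0), 33.5 to 57.6 CPM with cisplatin (median 38.3), 57.5 to 95.5 CPM with AU-15330 (median 74.3) and 75.5 to 107 CPM with the combination (median 93.8). DMSO replicate 1 was below every cisplatin library, the other 5 DMSO libraries were above all of them, and the combination libraries did not overlap with those of cisplatin. Mthfd2 fell 1.85-fold with cisplatin (log2 -0.89 ± 0.187, adjusted p = 0.000283) and was 2.26-fold higher in the combination than with cisplatin (adjusted p = 4.25e-06). The AU-15330 difference from DMSO was 0.002 ± 0.184 (adjusted p = 0.993). It was 0.50 (adjusted p = 0.142) within replicates 1 to 3 and -0.52 (adjusted p = 0.000113) within 4 to 6.

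Mthfd2l, a related mitochondrial enzyme with a narrow spread in these libraries, followed a course of its own. It gave 9.76 to 11.9 CPM in DMSO (median 10.5), 8.19 to 9.31 CPM with cisplatin (median 8.55), 18.2 to 21.7 CPM with AU-15330 (median 19.4) and 12.3 to 14.1 CPM with the combination (median 13.1). The 4 groups did not overlap. Mthfd2l fell 1.24-fold with cisplatin (log2 -0.31 ± 0.0711, adjusted p = 0.000607) and was 1.82-fold higher with AU-15330 (log2 0.86 ± 0.0697, adjusted p = 2.32e-11). The combination was 1.53-fold above cisplatin (adjusted p = 2.38e-08) and 1.48-fold below AU-15330 (adjusted p = 3.23e-07). Among the 9 tested members, Mthfd2l was the one that fell from AU-15330 to the combination.

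Libraries with the numbers 1 to 3 and 4 to 6 separated without overlap in at least 1 treatment for each of the 9 tested members, although no label names these numbers as batches. How many of all genes separate in at least 1 treatment was not counted, so only the counts per treatment have a background. Of the 9, 5 separated in DMSO, 1 with cisplatin, 4 with AU-15330 and 8 with the combination, against 21.8%, 30.9%, 32.6% and 19% of all tested genes. Mthfd1l was higher in replicates 1 to 3 than in 4 to 6, without overlap, in the cisplatin, AU-15330 and combination groups, by 0.65, 0.58 and 0.43 on the log2 scale. Mthfd2 was higher in replicates 1 to 3 with AU-15330 (0.50) and the combination (0.35) and lower in DMSO (-0.51). Shmt2 and Psph had the same pattern as Mthfd2, with replicates 1 to 3 lower in DMSO (-0.67 and -0.70) and higher with AU-15330 and with the combination. Phgdh (-0.59) and Mthfd1 (-0.21) were also lower in replicates 1 to 3 of DMSO. In the combination, Psat1, Shmt1 and Mthfd1 were higher in replicates 1 to 3 and Mthfd2l was lower, while Aldh1l2 overlapped in every group.

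**Figure D3:**
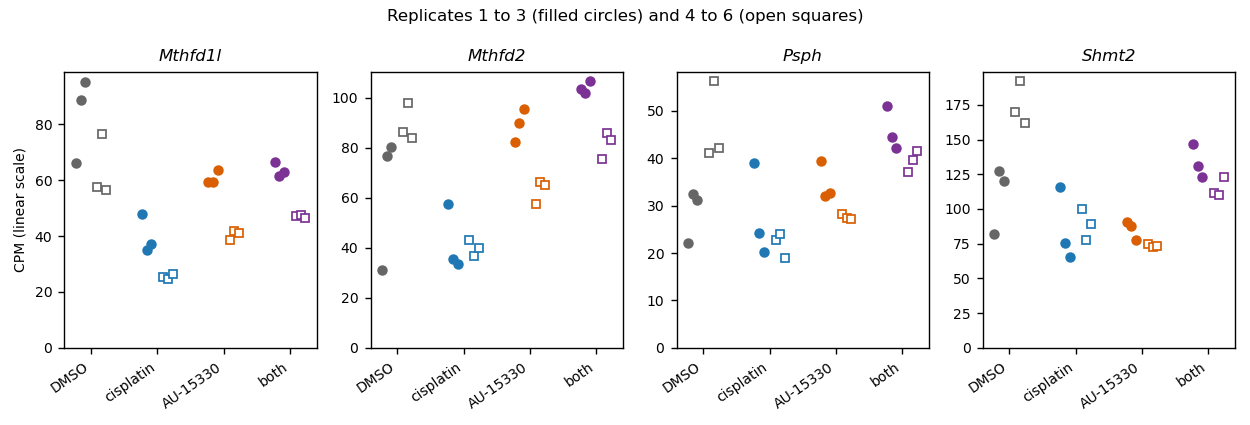
CPM of Mthfd1l, Mthfd2, Psph and Shmt2 in each library on linear axes from 0, by treatment, with replicates 1 to 3 as filled circles and 4 to 6 as open squares. For Mthfd2, Psph and Shmt2, replicates 1 to 3 lie below 4 to 6 in DMSO and above them with AU-15330 and with both drugs.

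Aldh1l2, the mitochondrial enzyme that makes NADPH from formyl-tetrahydrofolate, is given as a description because its values led to the choice of the pathway. The DMSO libraries gave 33.5, 185, 117, 143, 122 and 182 CPM in the order of their numbers. Cisplatin libraries gave 9.50 to 13.1 CPM (median 11.2), AU-15330 libraries 0.360 to 0.822 CPM (median 0.688) on 8 to 20 counts each, and combination libraries 1.49 to 2.63 CPM (median 1.89) on 31 to 60 counts. The 4 groups did not overlap, even with DMSO replicate 1 included. Relative to DMSO, Aldh1l2 was 11.5-fold lower with cisplatin, 207.6-fold lower with AU-15330 and 64.0-fold lower with both drugs, and it was 3.25-fold higher with both than with AU-15330 alone. The SE of the log2 fold change against DMSO was 0.25 for cisplatin, 0.341 for AU-15330 and 0.297 for the combination, and without DMSO replicate 1 it was 0.134, 0.182 and 0.158. D10Wsu102e, which shares 1056 exon bases with Aldh1l2 on the other strand, stayed at 39.5 to 55.2 CPM over the 24 libraries.

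**Figure D4:**
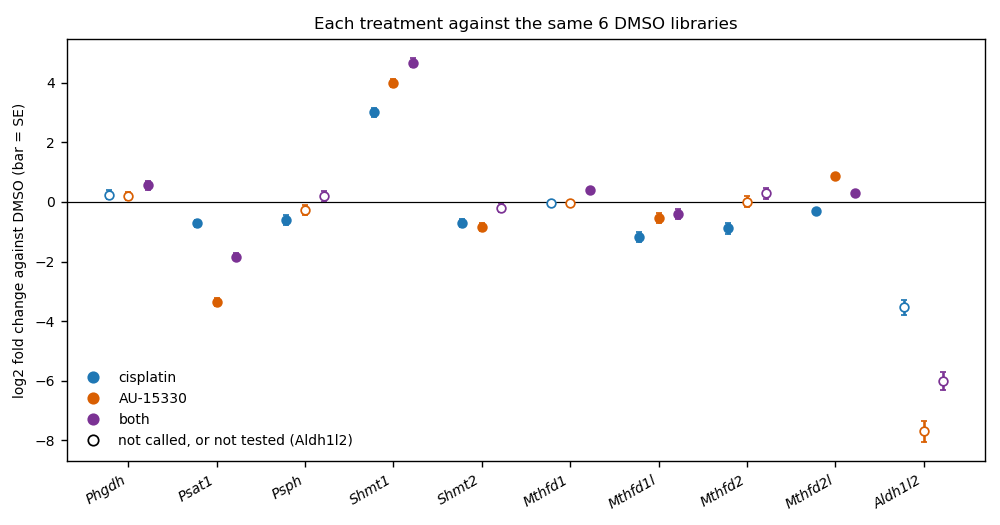
Log2 fold change (point) and SE (bar) of each member with cisplatin, AU-15330 or both drugs against the same 6 DMSO libraries, filled where edgeR's adjusted p was under 0.05. Shmt1 rises to 4.67 with both drugs and Psat1 falls to -3.37 with AU-15330; Aldh1l2 is open throughout because it was not tested.

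Cisplatin lowered most of the tested members. Against DMSO, 6 of the 9 were lower (Psat1, Psph, Shmt2, Mthfd1l, Mthfd2 and Mthfd2l), 1 was higher (Shmt1), and Phgdh and Mthfd1 did not pass the test. Of all 12941 tested genes, 25.7% were called lower and 26.0% higher, 3329 and 3360 genes, a split that became 2529 and 3977 under total-count scaling. The members' median log2 fold change was -0.60, against -0.004 over all tested genes. Without DMSO replicate 1, again 6 were lower and 1 higher. Within replicates 1 to 3, 3 were lower and 2 higher, against 2042 and 2319 of 13008 genes. Psph, Shmt2 and Mthfd2 were not called lower there, and Phgdh was the added rise.

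With AU-15330 alone the tested members went both ways. Psat1, Shmt2 and Mthfd1l were lower than in DMSO, Shmt1 and Mthfd2l were higher, and Phgdh, Psph, Mthfd1 and Mthfd2 did not pass the test. The backgrounds were 37.2% called lower and 36.2% called higher, so 3 and 2 of 9 members are no more than the shares over all genes. The median of the members was -0.04 and that of all genes -0.003 on the log2 scale. This comparison and that of cisplatin share the DMSO libraries. Without DMSO replicate 1 the members' median was -0.15 and the count of lower members 4, against 4780 of 13053 genes. Within replicates 4 to 6, 6 members were lower, against 4860 of 12985 genes.

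With AU-15330 added to cisplatin, most of the tested members were higher. Against cisplatin alone, 7 of the 9 tested members were higher with both drugs (Psph, Shmt1, Shmt2, Mthfd1, Mthfd1l, Mthfd2 and Mthfd2l), Psat1 was lower, and Phgdh did not pass the test (log2 0.31 ± 0.142, adjusted p = 0.0541). Over all genes 35.4% were called higher and 32.7% lower. The members' median was 0.61 on the log2 scale, against 0.04 for all genes. Phgdh was called higher as well without DMSO replicate 1 (adjusted p = 0.0457), making 8 of 9.

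Adding cisplatin to AU-15330 gave the fewest calls over all genes of the 5 comparisons of a pair of groups, 22.2% higher and 19.5% lower. Of the tested members, 6 were higher with both drugs than with AU-15330 (Phgdh, Psat1, Psph, Shmt1, Shmt2 and Mthfd1), Mthfd2l was lower, and Mthfd1l and Mthfd2 did not pass the test. The calls of Phgdh and Psph were lost under 13 and 7 of the 15 alternatives. Mthfd2 was higher in all 6 same-numbered pairs, but edgeR with a replicate block did not call it (0.29, adjusted p = 0.239). The median of the 9 tested members was 0.43 on the log2 scale, against 0.006 for all genes. Against DMSO, the combination raised 4 members (Phgdh, Shmt1, Mthfd1 and Mthfd2l) and lowered 2 (Psat1 and Mthfd1l), with backgrounds of 36.8% and 36.5% and a median of 0.29 against -0.0008. Without DMSO replicate 1, Shmt2 joined the lower members, 3 in all, and the median was 0.13. The rise of Mthfd2l (log2 0.29 ± 0.0701, adjusted p = 0.000543) was not called within replicates 1 to 3 (0.17, adjusted p = 0.254), and that of Phgdh was not called within 4 to 6.

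The AU-15330 effect depended on cisplatin for most of the tested members. The interaction, the log2 difference made by AU-15330 with cisplatin minus that without it, was positive for 6 of 9 and negative for Shmt1, against 17.9% and 15.8% of all tested genes (2313 and 2048 genes, or 1791 and 2506 under total-count scaling). It was 2.25 ± 0.171 for Psat1 (adjusted p = 1.6e-10), 1.35 ± 0.212 for Shmt2 (adjusted p = 2.44e-05) and 1.30 ± 0.240 for Mthfd1l (adjusted p = 0.000179). Shmt2 and Mthfd1l thus fell with AU-15330 where no cisplatin was given and rose where it was. The interaction was 1.17 ± 0.262 for Mthfd2 (adjusted p = 0.00116), 1.05 ± 0.243 for Psph (adjusted p = 0.00159) and 0.47 ± 0.0911 for Mthfd1 (adjusted p = 0.000296). For Shmt1 it was -2.33 ± 0.179 (adjusted p = 2e-10): the rises with the drugs taken alone, 8.01-fold and 15.98-fold, give, multiplied, more than the 25.5-fold rise with both. Phgdh gave 0.11 ± 0.201 (adjusted p = 0.702) and Mthfd2l -0.25 ± 0.0988 (adjusted p = 0.0508), which passed the threshold without DMSO replicate 1 (-0.26, adjusted p = 0.0444). The median over the 9 members was 1.05, against 0.006 over all genes. Within replicates 1 to 3 alone, 3 members were positive and Shmt1 negative, against 769 and 932 of 13008 genes. The calls of Mthfd2, Psph and Mthfd1 were each lost under 1 of 14 alternatives. Aldh1l2, as a description, had an interaction of 5.23.

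**Figure D5:**
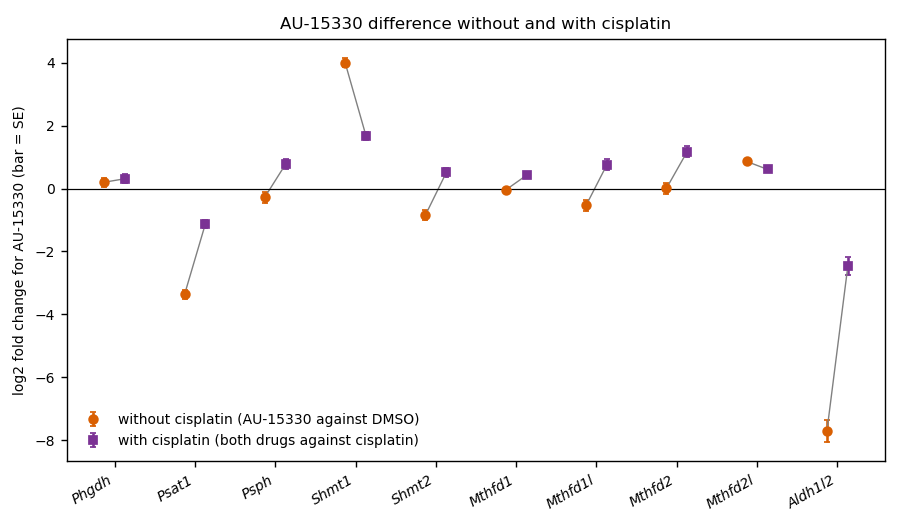
Log2 fold change made by AU-15330 for each member, without cisplatin (circles, AU-15330 against DMSO) and with cisplatin (squares, both drugs against cisplatin), with SE bars and a line joining the pair. Psat1 is at -3.37 and -1.12, Shmt1 at 4.00 and 1.67, and Shmt2 and Mthfd1l are below 0 without cisplatin and above 0 with it.

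The neighbouring reactions were read from lists that hold none of the members, and their counts stand against the shares of all tested genes called in the same comparison, given above with the members. Of 36 tested genes, Atf4 and 35 genes of its amino acid response, 33 were lower (91.7%, against 25.7% of all genes) and 0 higher with cisplatin than with DMSO, with a median log2 fold change of -0.78. The log2 fold change was -3.10 ± 0.326 for the cystine transporter Slc7a11 (adjusted p = 1.47e-08 by edgeR's quasi-likelihood test) and -5.02 ± 0.409 for the hormone gene Fgf21 (adjusted p = 1.42e-10). With AU-15330, 23 were lower (63.9%, against 37.2%) and 2 higher, the aminoacyl-tRNA synthetase gene Aars (log2 0.78 ± 0.111) and the proline synthesis gene Aldh18a1 (log2 0.61 ± 0.133). Against cisplatin, the combination had 19 higher and 7 lower, and the interaction was positive for 33 and negative for 0. In the combination, 12 were higher and 2 lower than with AU-15330, and 3 higher and 19 lower than with DMSO. Without DMSO replicate 1 the lower counts against DMSO were 34 with cisplatin, 30 with AU-15330 and 22 with the combination. Atf4, one of the 36, fell from 382 to 814 CPM in DMSO to 281 to 434 CPM with cisplatin (log2 -0.85, adjusted p = 2.08e-06) and to 318 to 384 CPM with AU-15330 (log2 -0.76, adjusted p = 3.81e-06).

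Of 10 tested genes of serine and glycine transport and serine breakdown, 9 were lower with cisplatin and 7 with AU-15330 than in DMSO, and 0 were higher in either, against 25.7% and 37.2% of all genes called lower. The glycine transporter gene Slc6a9 fell with cisplatin (log2 -1.30 ± 0.152, adjusted p = 8.85e-08), and Sfxn1, a mitochondrial serine transporter, with AU-15330 (log2 -1.25 ± 0.0663, adjusted p = 4.19e-15). With the combination, 7 were lower and 0 higher than in DMSO, 4 higher and 4 lower than with cisplatin, and 3 higher and 4 lower than with AU-15330. The interaction was positive for 5 and negative for 0. Without DMSO replicate 1, 9 were lower with the combination than in DMSO and 5 than with cisplatin, and the interaction was positive for 6.

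Among 19 tested folate-cycle enzymes and folate transporters outside the members, 5 were higher and 5 lower with cisplatin, and 9 higher and 4 lower with AU-15330, than in DMSO. The cisplatin shares, 26.3% each way, are those of all genes (26.0% and 25.7%), and with AU-15330 47.4% were higher and 21.1% lower against 36.2% and 37.2%. Tyms, the thymidylate synthase gene, rose with each treatment, from 7.14 to 12.6 CPM in DMSO to 20.5 to 37.4 CPM with cisplatin, 23.1 to 31.9 CPM with AU-15330 and 40.5 to 50.9 CPM with both. AU-15330 lowered the folate receptor gene Folr1 (log2 -2.83 ± 0.138, adjusted p = 6.73e-16) and the sarcosine dehydrogenase gene Sardh (log2 -3.05 ± 0.142, adjusted p = 2.87e-16). Cisplatin lowered Slc19a1, the reduced folate carrier (log2 -1.14 ± 0.0878, adjusted p = 5.31e-11). Slc25a32, the mitochondrial folate carrier, had a log2 difference from DMSO of -0.26 with cisplatin (adjusted p = 0.0215) and of 0.37 with AU-15330 (adjusted p = 0.000691). Aldh1l1, the cytosolic counterpart of Aldh1l2, stayed under 0.746 CPM in every library. In the combination, 11 of the 19 were higher and 5 lower than in DMSO, 13 higher and 5 lower than with cisplatin, and 7 higher and 1 lower than with AU-15330, and the interaction was positive for 4 and negative for 3 (21.1% and 15.8%, against 17.9% and 15.8% of all genes). Without DMSO replicate 1, 4 were lower with cisplatin than in DMSO, 12 were higher in the combination than with cisplatin, and the interaction was positive for 6.

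Of 12 purine synthesis genes, the combination raised 8 and lowered 3 against DMSO, raised 8 and lowered 2 against cisplatin, and raised 8 and lowered 0 against AU-15330. These rises are 66.7% of the list, against 36.8%, 35.4% and 22.2% of all genes. Gart and Atic, which use formyl-tetrahydrofolate in purine assembly, were higher with both drugs than with cisplatin, Gart by a log2 fold change of 0.91 ± 0.0949 (adjusted p = 3.91e-09) and Atic by one of 1.01 ± 0.0527 (adjusted p = 4.01e-15). With cisplatin alone 2 rose and 3 fell, with AU-15330 alone 6 rose and 4 fell, and the interaction was positive for 9 and negative for 0. Of 8 tested genes of the methionine cycle and transsulfuration, 2 rose and 4 fell with each drug alone against DMSO, 4 rose and 4 fell with both, 2 rose and 2 fell against cisplatin, and 4 rose and 1 fell against AU-15330, and the interaction was positive for 4 and negative for 1. Cth, the cystathionine lyase that yields cysteine, fell with cisplatin (log2 -2.40 ± 0.409, adjusted p = 2.34e-05) and with AU-15330 (log2 -4.50 ± 0.51, adjusted p = 1.37e-08), from 0.990 to 8.51 CPM in DMSO to 0.364 to 1.88 CPM with cisplatin and 0.0486 to 0.495 CPM with AU-15330, the last on 1 to 11 counts a library. Counts over the lists describe these libraries and were not tested against other gene lists.

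The genes whose log2 CPM over the 24 libraries was most like that of Aldh1l2 were, of 9557 genes searched outside the members, Ptgs2 (Pearson r = 0.988), Phf10 (0.973), Elovl6 (0.972), Selenoi (0.971) and Irak1 (0.970). The libraries share treatments, so these values describe the ordering of groups and have no p-value. Ptgs2, the inducible prostaglandin synthase gene, gave 305 to 1161 CPM in DMSO, 112 to 236 CPM with cisplatin, 9.42 to 14.1 CPM with AU-15330 and 21.6 to 29.4 CPM with both, the same order of groups as for Aldh1l2.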

How the data were processed

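RNA of ID8 Trp53-/- cells was measured in 24 poly(A) libraries, 6 for each of 4 treatments. The authors deposited raw read counts for 25229 gene symbols. The submitters' processing notes name STAR 2.7.1a, DESeq2 1.36.0 and mm10. The counting tool, its use of strand and its annotation are not given in the sources used here, and the paper's text gives another cisplatin concentration than the labels. All 48 columns matched a library, and the 2 lanes of each were summed (chi-square per degree of freedom 1.36 to 1.47 between lanes, 2.30 to 122 between replicates). The 10 members and the gene lists were chosen with earlier results of these data known.

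Counts were fitted for all groups together in edgeR 4.0.16 (R 4.3.3) with TMM scaling and filterByExpr (12941 genes kept, all 10 members among them), and tested by quasi-likelihood on 20 residual degrees of freedom. A call needed a p-value below 0.05 after Benjamini-Hochberg adjustment across these genes. Log2 CPM used a prior count of 2. The fit was tested on simulated data. Alternatives were DESeq2 1.42.0, 2 other scalings, no filter (genes with at least 1 count), a replicate block, the compared groups alone, and subsets of replicates. Genes named outside the members were at most 2 of the most positive and 2 of the most negative called genes of a list in a comparison, folate genes and Atf4 fixed by name (some are not reported here), cell type markers, genes that overlap a member, and the 5 genes with a mean log2 CPM of at least 3 most like Aldh1l2. Promoters and the build GRCm38 come from RefSeq, and exons from GENCODE M21. Similar transcripts were found with BLAST 2.17.0. Mouse tumours, human cells and protein data of the study were not analysed here.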

Additional observations from a re-analysis of the deposited data

Results flagged for a closer look

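In 6 of 40 groups of 6 values (10 members, the untested Aldh1l2 included, in 4 treatments), 1 library lay far from the others. Its gap to the nearest neighbour was more than 0.625 of the group's range. All 6 were groups of tested members. Chance gives this in about 1 of 20 independent groups. These groups are genes read in the same 24 libraries and are not independent, so that rate does not measure an excess here. The share over all genes was not counted. Replicate 1 was that library each time. It was highest for Psat1 with cisplatin (259 CPM against 180.1 to 197 CPM, gap 0.79 of the range), with AU-15330 (43.6 CPM against 27.7 to 32.6 CPM, 0.688) and with the combination (120.0 CPM against 77.3 to 92.5 CPM, 0.645). It was highest for Psph with cisplatin (39.0 CPM against 18.9 to 24.2 CPM, 0.737) and for Phgdh with the combination (130.0 CPM against 97.5 to 109 CPM, 0.658). It was lowest for Mthfd2 in DMSO (31.0 CPM against 76.8 to 97.9 CPM, 0.685).

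The AU-15330 effect differed between cells with and without cisplatin for 7 of the 9 tested members, by edgeR's interaction term. Of all tested genes, 17.9% were called positive and 15.8% negative by this term. Psph, Mthfd1 and Mthfd2 each lost the call under 1 of 14 alternatives, with the term's adjusted p up to 0.416, 0.101 and 0.239. Expressed as log2, the effect with cisplatin minus that without was 2.25 for Psat1, 1.35 for Shmt2, 1.30 for Mthfd1l, 1.17 for Mthfd2, 1.05 for Psph, 0.47 for Mthfd1 and -2.33 for Shmt1.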

How the results depend on the processing

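Of 801 log2 fold changes of the 9 tested members under 15 alternatives, 723 kept their direction and side of the threshold, 34 lost a call, 22 gained one and 22 changed sign, and the cause was not tested. The 89 of Aldh1l2, not tested, kept their sign. All 80 group levels stayed within the spread between replicates under both other scalings. Members called against DMSO with cisplatin were 2 higher and 3 lower within replicates 1 to 3 (1 and 6 in the full fit), and 1 to 2 were higher when a replicate number was left out. All genes there gave 2319 higher and 2042 lower of 13008 within replicates 1 to 3. With AU-15330, 8 were called and 6 lower within replicates 4 to 6, where 4597 of 12985 genes were called higher and 4860 lower. In the combination against DMSO, 1 was lower under total counts (3867 of 12941 genes), 4 within replicates 4 to 6 (4904 of 12985), and 1 to 3 with a replicate left out. The interaction gave 4 calls, 3 of them higher, within replicates 1 to 3, against 769 higher and 932 lower of 13008 genes. It gave 2 lower under DESeq2, DESeq2 size factors, total counts, or without DMSO replicate 1, and 1 to 2 lower with a replicate left out. It had no fit of the compared groups alone. Total counts moved the median of all genes by 0.13 in AU-15330 and 0.14 in the combination against DMSO.

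Signs changed as follows. Within replicates 1 to 3 the values were 0.0349 (Mthfd1) with cisplatin, 0.27 (Psph) and 0.10 (Mthfd1) with AU-15330, 0.24 (Shmt2) with both, and -0.29 (Phgdh) in the interaction. Within 4 to 6 the values were -0.082 (Phgdh) with cisplatin, -0.14 (Phgdh) and -0.52 (Mthfd2) with AU-15330, and -0.28 (Psph) and -0.18 (Mthfd2) with both. Total counts gave 0.0349 and 0.0827 for Mthfd1 with cisplatin and AU-15330. Mthfd2 with AU-15330 gave -0.000852 under DESeq2, -0.00019 under its size factors, -0.0148 without a filter, -0.15 without DMSO replicate 1, and -0.20 to 0.13 with a replicate left out. Psph in the combination gave -0.0422 to 0.349 with a replicate left out, and the Phgdh interaction -0.0916 to 0.223.

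Of 36 same-numbered pairs, 23 had a correlation of deviations above 0.1 (lowest -0.133, highest 0.483, median 0.111 against -0.0342 for other numbers), and 10 libraries were closest to their own number. All 6 pairs were above 0.1 for AU-15330 with the combination (0.101 to 0.483), where Phgdh lost its call under the block, and not all were for any other pair of groups. With a replicate block, 7 of 9 members were called with cisplatin (56.8% of all genes) and 5 with AU-15330 (9966 of 12941 genes) against DMSO, 8 for the combination against cisplatin (71.8%), 6 against AU-15330 (47.8%), 6 against DMSO (76.4%), and 7 in the interaction (41.0%). Mthfd2 with AU-15330 was -0.0123. Few counts limit Aldh1l2 with AU-15330 (8 to 20 a library), Shmt1 in DMSO (32 to 54) and Cth with AU-15330 (1 to 11).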
